A study of Rattus norvegicus with 90 samples.

Results

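In the kidneys of rats given the high dose of thioacetamide, 136 of 40071 annotated transcripts were higher after 24 h than in vehicle-treated rats while the liver and heart did not show a rise of comparable size. They were chosen by a rule on CPM values, the estimated count of a transcript scaled so that all annotated transcripts of a sample sum to 1000000. For each organ, the log2 difference between the mean CPM + 1 of the high-dose group and that of the vehicle group at 24 h was taken, and the median difference of all transcripts with a vehicle level of at least 1 CPM in that organ was subtracted. A transcript became a member if this centred difference was at least 1 in kidney and below 0.5 in both liver and heart. The rule thus fixed the direction of the kidney difference at 24 h, and every value from the high-dose and vehicle samples at 24 h is given below as a description.

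RNA-seq was performed on liver, kidney, and heart of male Sprague-Dawley rats, aged 10 weeks at purchase, that received 1 intraperitoneal injection of saline vehicle (3 ml/kg) or of thioacetamide at 25 mg/kg (low dose) or 100 mg/kg (high dose) and were sampled 8 or 24 h later. There were 5 samples in each of 18 groups, 90 in all, and whole kidneys and hearts were powdered before RNA isolation. All rats carried a jugular vein catheter, and per the study's methods the organs of a group came from the same rats, but the labels do not say which samples share a rat. The rats collected at 8 and at 24 h were dosed at different times of day and had different access to food, so the vehicle groups of both times are shown throughout. The liver sample MS-1 (vehicle, 24 h) and the liver sample MS-9 (low dose, 8 h) differed by at most 3 counts in any transcript, less than sampling noise although their labels differ, so the 90 samples hold 89 distinct ones. MS-1 was therefore left out of the rule and of all liver values at 24 h, and MS-9 entered no comparison below.

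Thioacetamide is a classic liver toxicant that becomes reactive after oxidation by cytochrome P450 and flavin-containing monooxygenases, and its products bind to proteins. The kidney receives the circulating compound and its products, and its tubular cells are known to alter their transcription under toxic stress. Because whole organs were sequenced, a change in the number of cells of a type and a change in RNA per cell cannot be told apart. Reads were assigned to single transcripts, so that a change of a whole gene and a shift between its isoforms were not separated either. The processed files name transcripts by Ensembl identifiers without gene names, and no table used here pairs them, so the members are numbered from 1, the largest centred kidney difference, to 136, and roles of single genes, pathway lists, cell type markers, and sequences are not given.

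The total of estimated counts ranged from 16332764 to 36303248 over the 90 samples. In the 30 kidney samples, between 15428292 and 27853602 counts fell on annotated transcripts, so that 1 count was worth 0.0359 to 0.0648 CPM. A count of 0 in the shallowest kidney sample allowed a level of up to 0.194 CPM (3 counts, counting error only).

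Of 489 transcripts with a centred kidney difference of at least 1, 315 reached 0.5 in liver and 120 in heart, 82 of them in both, and the remaining 136 were the members. Their kidney differences ran from 1.0 to 3.58 with a median of 1.28. Only 13 members reached 2, and 61 lay below 1.2. The members nearest the kidney limit had differences of 1.0017 and 1.0074, and the nearest transcripts outside it 0.9994 and 0.9966. At the liver limit, 0.4968 and 0.4976 lay inside and 0.5176 and 0.5222 outside, and at the heart limit, 0.4845 and 0.4921 lay inside and 0.5151 and 0.5190 outside.

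The centring mattered for the liver. The median of all expressed transcripts moved by 0.68 on the log2 scale in liver after the high dose, against 0.10 in kidney and -0.02 in heart. Before the liver median was subtracted, 48 members had a liver difference of at least 0.5 and 15 had one of at least 1. Absence of a rise in the liver is therefore relative to the other liver transcripts. In the heart, 127 members had a centred difference within 0.5 of 0 in either direction.

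Some kidney samples carried RNA typical of another organ. A set of 186 transcripts was defined from the 8 h vehicle samples as liver-restricted, with at least 100 CPM in liver and at least 100 times the level of both kidney and heart, and 17 of them were members. The other 169, which were no members, summed to 2997 CPM in the high-dose kidney sample MS-54 and to between 365 and 416 CPM in the other 4 high-dose samples at 24 h. They summed to 16325 CPM in the low-dose sample MS-37 and to between 306 and 1111 CPM in the other low-dose samples at 24 h. The vehicle samples at 24 h lay between 278 and 1074 CPM. Samples MS-54 and MS-37 thus stood apart by transcripts that were not used to choose the members, and results that rest on them are given with and without them.

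The 17 liver-restricted members followed these samples. In 14 of them the highest of the 5 high-dose kidney samples was MS-54, and in 8 of them this sample held over 90% of the high-dose sum. Without MS-54 the rule kept 4 of the 17, and the high-dose mean exceeded the vehicle mean in 8 of the 17. The low-dose mean was at or above the high-dose mean in all 17 with MS-37 and in 0 of 17 without it. With both MS-37 and MS-54 left out, it was at or above the high-dose mean in 10 of 17. What liver-type RNA in these samples contributed to the kidney differences of the 17 was not tested beyond these values.

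Member 4 differed from most of this set, in which the groups overlapped at 24 h in all but 4. It measured 18.5, 19.5, 12.6, 8.16, and 6.89 CPM in the high-dose kidneys at 24 h and 1.41, 0.377, 0.0820, 0.261, and 0.345 CPM in the vehicle kidneys. Its groups did not overlap, and MS-54 (12.6 CPM) was in the middle of the high-dose samples. At 8 h it measured 5.80 to 13.1 CPM after the low dose against 0.0537 to 0.992 CPM in vehicle kidneys, and this rise passed the test (log2 fold change 4.02 ± 0.57 SE, edgeR quasi-likelihood test, adjusted p = 0.00806). In untreated liver the same transcript stood at 278 to 490 CPM.

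In a further 13 members a single sample held over 60% of the sum of the 5 high-dose samples. The sample was MS-106 for 8 members, MS-54 for 3, and MS-36 for 2, and in none of the 13 did all high-dose samples exceed all vehicle samples. Their vehicle levels at 24 h were low, below 1 CPM in 12 of 13. Against the vehicle kidneys of 8 h in place of those of 24 h, the median log2 difference of these 13 was -0.09, and 3 of 13 reached 1.

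The remaining members, 77.9% of all, were higher in more than single samples. In the vehicle kidneys at 24 h, 35 of them averaged below 1 CPM, 38 between 1 and 10, and 33 at 10 CPM or more. In 59 of them (55.7%), each high-dose sample exceeded each vehicle sample at 24 h. Among all 136 members this held for 63, of 129 that reached a mean of 1 CPM, against 9.85% of all 17181 transcripts at that level (4.67% had all high-dose samples below vehicle). Since the rule used these samples, nothing is read from the comparison with the background. Against the vehicle kidneys of 8 h, 82 of these remaining members still differed by at least 1 on the log2 scale, with a median of 1.23 compared with 1.38 for the vehicle kidneys of 24 h. The samples MS-33, MS-36, MS-54, MS-106, and MS-56 were the highest of the high-dose group for 20, 25, 19, 23, and 19 of these remaining members, so no sample led most of them. Without MS-54, 88.2% of the 119 members that were not liver-restricted stayed members.

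**Figure D1:**
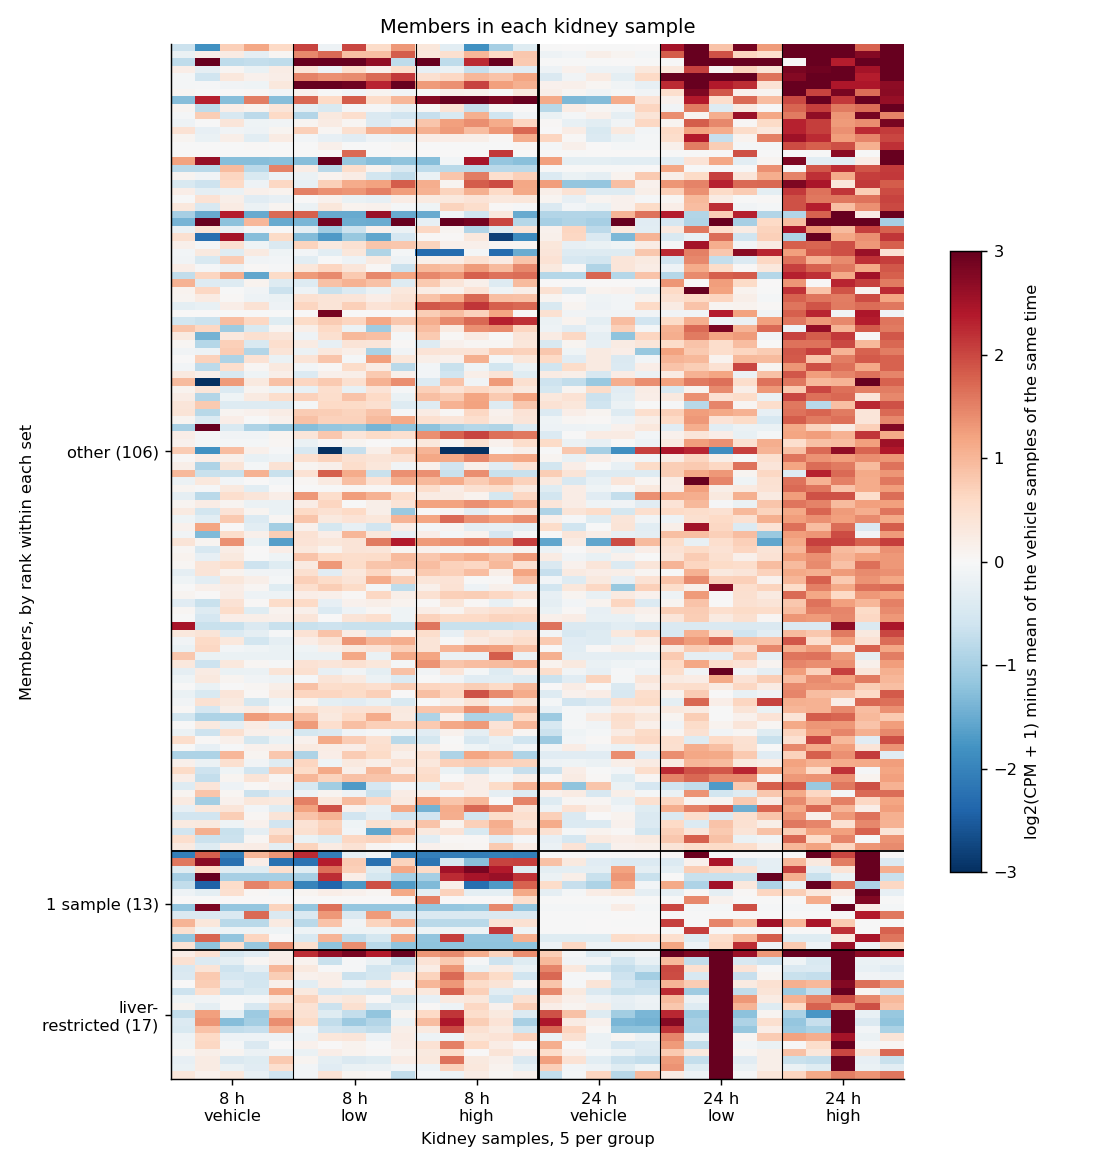
Each row is a member and each column a kidney sample, and the color gives log2(CPM + 1) minus the mean of the vehicle samples of the same time. The remaining members at the top were higher in most high-dose samples at 24 h, the 13 in the middle in single samples, and the 17 liver-restricted members at the bottom mainly in 1 low-dose and 1 high-dose sample.

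As a sum, the remaining members took 3759, 4499, 4220, 3079, and 4299 CPM in the high-dose kidneys at 24 h and 1160, 1491, 1373, 1202, and 1672 CPM in the vehicle kidneys. The low-dose kidneys took 2805, 3546, 3240, 3162, and 2096 CPM, all above the vehicle range, with 3 of them within the high-dose range and the other 2 below it. The value of MS-37, 3240 CPM, was near the group's median, unlike its liver-restricted sum.

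At 8 h, which the rule did not use, the same sum was 1697, 1322, 1789, 1517, and 1717 CPM in vehicle kidneys. It was 2312, 1985, 2363, 2089, and 2162 CPM after the high dose and 2114, 2246, 2152, 2234, and 1894 CPM after the low dose. Neither dose group overlapped the vehicle group. The sums at 8 h were close for both doses. At 24 h the low-dose kidneys averaged 2970 ± 555 CPM and the high-dose kidneys 3971 ± 568 CPM (SD, n = 5 each). The members were chosen by high values in the high-dose kidneys at 24 h, so no change of the dose order with time is read from these means. Few abundant transcripts weigh most in these sums, so the counts of members are given next.

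**Figure D2:**
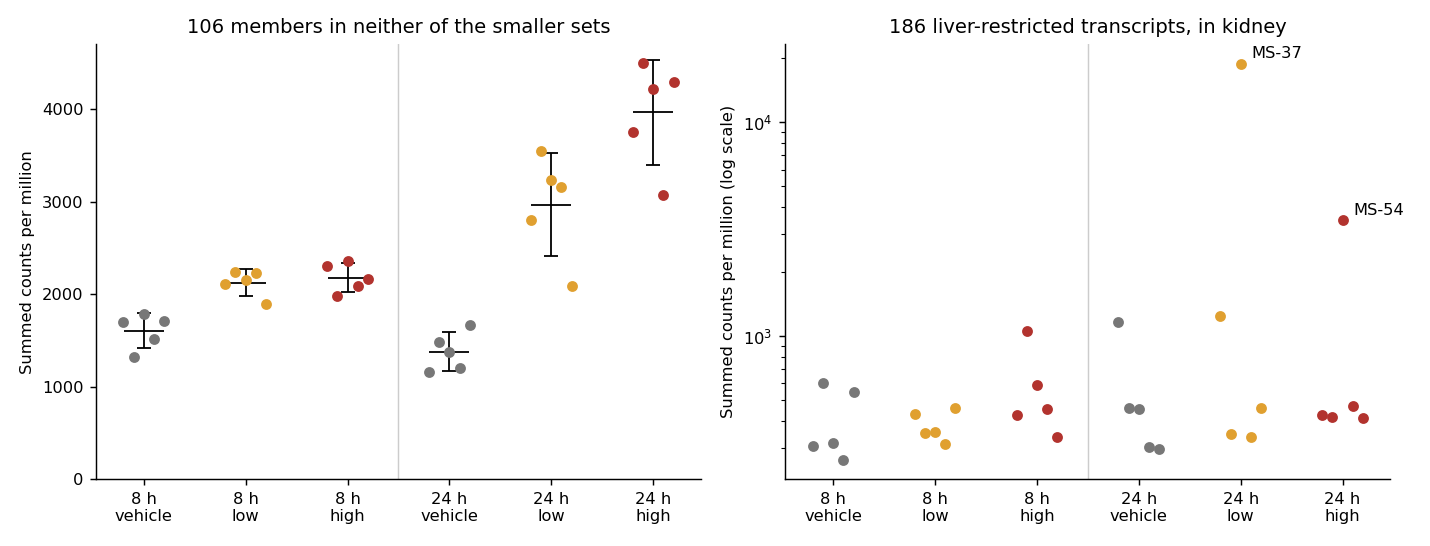
Points are kidney samples in 6 groups of 5; the left panel sums CPM over the members outside both smaller sets, with bars for the mean and SD, and the right panel sums the 186 liver-restricted transcripts on a log axis. On the left all treated samples lie above the vehicle samples of their time, where the rule used the high-dose and vehicle samples of 24 h. On the right MS-37 (18742 CPM) and MS-54 (3476 CPM) stand far above the other kidney samples.

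The comparison of high dose and vehicle in kidney at 8 h asked whether the members had moved before 24 h. A transcript was called when the Benjamini-Hochberg adjusted p of edgeR's quasi-likelihood test over all transcripts was at most 0.01 and the natural-log fold change at least 0.60, the limits of the study. Of 114 members tested, 17 rose (14.9%) and 0 fell, where 1.09% of all 18597 transcripts were called higher and 0.409% lower. None of the 17 was liver-restricted or a single-sample member. Their log2 fold changes ran from 0.95 to 3.81 with a median of 1.29. The groups of kidneys did not overlap, with all high-dose samples above all vehicle samples, in 25 members (23.6% of those with a mean of at least 1 CPM), against 5.64% of all transcripts, and no member had all high-dose samples below vehicle, against 3.55%. Over all 114 members tested the median log2 fold change was 0.50, against -0.03 over all transcripts. Of these members 89 were above 0, where 46.9% of all transcripts were. The 17 were spread over the ranking, from member 7 to member 111. In 16 of them the high-dose and vehicle samples of 24 h did not overlap, as in 63 of 129 members and 9.85% of all transcripts. The rule used those samples, so nothing is read from this. The count of 17 was sensitive to single samples. It fell to between 7 and 10 when any of 8 samples was left out (MS-40, MS-46, MS-58, MS-59, MS-98, MS-101, MS-102, or MS-57). In these fits the calls over all transcripts also fell, from 278 to between 161 and 201. Without MS-100, 23 members were called and the calls over all transcripts went from 278 to 920. In the 2 high-dose and 4 vehicle samples with library numbers up to 90 alone, 0 members passed by edgeR and 47 of all 19607 transcripts passed. An unadjusted p below 0.05 was found there for 40 of 122 members and for 23.3% of all transcripts.

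Library numbers above 90 were unevenly spread, with 3 of the 5 high-dose kidneys at 8 h (MS-98, MS-101, MS-102) and 1 of the 5 vehicle kidneys (MS-100). Within the numbers up to 90, the summed level of the remaining members was 2312 and 2162 CPM after the high dose against 1517 to 1789 CPM in vehicle, and within the numbers above 90 it was 1985 to 2363 CPM against 1322 CPM. With a term for this split in the fit, 13 members rose.

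Member 64 showed the largest rise among the 17. It measured 2.09, 3.07, 3.89, 2.75, and 2.55 CPM in the high-dose kidneys at 8 h and 0.361, 0.150, 0.106, 0.114, and 0.255 CPM in the vehicle kidneys (log2 fold change 3.81 ± 0.38 SE, edgeR adjusted p = 0.000210). It was a scarce transcript with clearly separated groups. At 24 h it had a high-dose mean of 2.67 ± 1.35 CPM (SD, n = 5), so its level differed little between the times.

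Member 43 took the most reads of the 17 in vehicle kidneys. Its high-dose kidneys at 8 h measured 153, 144, 188, 145, and 139 CPM and its vehicle kidneys 33.7, 35.6, 48, 56.8, and 37.5 CPM (log2 fold change 1.88 ± 0.16, edgeR adjusted p = 8.19e-05). The low-dose kidneys at 8 h, 54.8 to 68.7 CPM, were much nearer to vehicle. At 24 h, in samples that the rule used, the high-dose kidneys stood at 123 to 154 CPM and the vehicle kidneys at 29.7 to 62.1 CPM.

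The low dose at 8 h raised 4 of 112 members tested (3.57%) and lowered 0, where 0.175% of all 18829 transcripts were called higher and 0.0425% lower. All low-dose samples lay above all vehicle samples in 14 members (13.6% of those with a mean of at least 1 CPM) and below them in 1, against 4.34% and 1.48% of all transcripts. The 4 that passed the test were members 4, 6, 7, and 25. Each of the 4 had a higher mean after the low than after the high dose at 8 h, though the doses were not tested against each other and share their vehicle samples.

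Member 7 measured 19.4, 18.7, 14.7, 9.16, and 25.9 CPM in the low-dose kidneys at 8 h, 4.04, 4.37, 7.51, 3.88, and 3.37 CPM in the high-dose kidneys, and 1.01, 1.05, 0.958, 0.914, and 1.58 CPM in the vehicle kidneys. The 3 groups did not overlap, and both rises passed the test, with log2 fold changes of 3.96 ± 0.30 (edgeR adjusted p = 0.000141) after the low dose and 2.09 ± 0.27 (edgeR adjusted p = 0.00119) after the high dose. At 24 h the order of the means was the other way round, 10.7 ± 6.21 CPM after the low and 14.8 ± 3.23 CPM after the high dose (SD, n = 5), and these groups overlapped. The rule used the high-dose samples of 24 h.

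Member 25 rose after both doses as well. It stood at 49.5 to 59.3 CPM after the low dose and 30.5 to 45 CPM after the high dose, against 16.3 to 23.1 CPM in vehicle kidneys at 8 h. Again the 3 groups did not overlap. Across the remaining members the low-dose mean exceeded the high-dose mean in 45 at 8 h and in 10 at 24 h. Since the rule chose high values in the high-dose kidneys at 24 h, no change with time is read from these counts.

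Member 6 measured 249, 350, 322, 217, and 69.4 CPM in the low-dose kidneys at 24 h, 153, 244, 214, 115, and 221 CPM in the high-dose kidneys, and 15.9, 20.3, 25.9, 17.7, and 33.5 CPM in the vehicle kidneys. Both dose groups lay wholly above vehicle and overlapped each other. It was the only member called after the low dose at 24 h, 0.926% of those tested (log2 fold change 3.31 ± 0.38, edgeR adjusted p = 0.00889), where 0.0377% of 18559 transcripts were called higher and 0.0216% lower. That comparison uses the same vehicle samples as the rule, and the call was lost in each of 9 of the 10 fits with 1 sample left out. The exception, without MS-105, gave 4 calls, and DESeq2 gave 10, while the calls over all transcripts went from 11 to 37 and to 142. At 8 h, where the vehicle samples are others, member 6 rose after the low dose (71.4 to 120 CPM against 17.6 to 33.7 CPM, log2 fold change 1.62 ± 0.18, edgeR adjusted p = 0.00216). After the high dose at 8 h its adjusted p was 0.0159 and its log2 fold change 0.87.

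**Figure D3:**
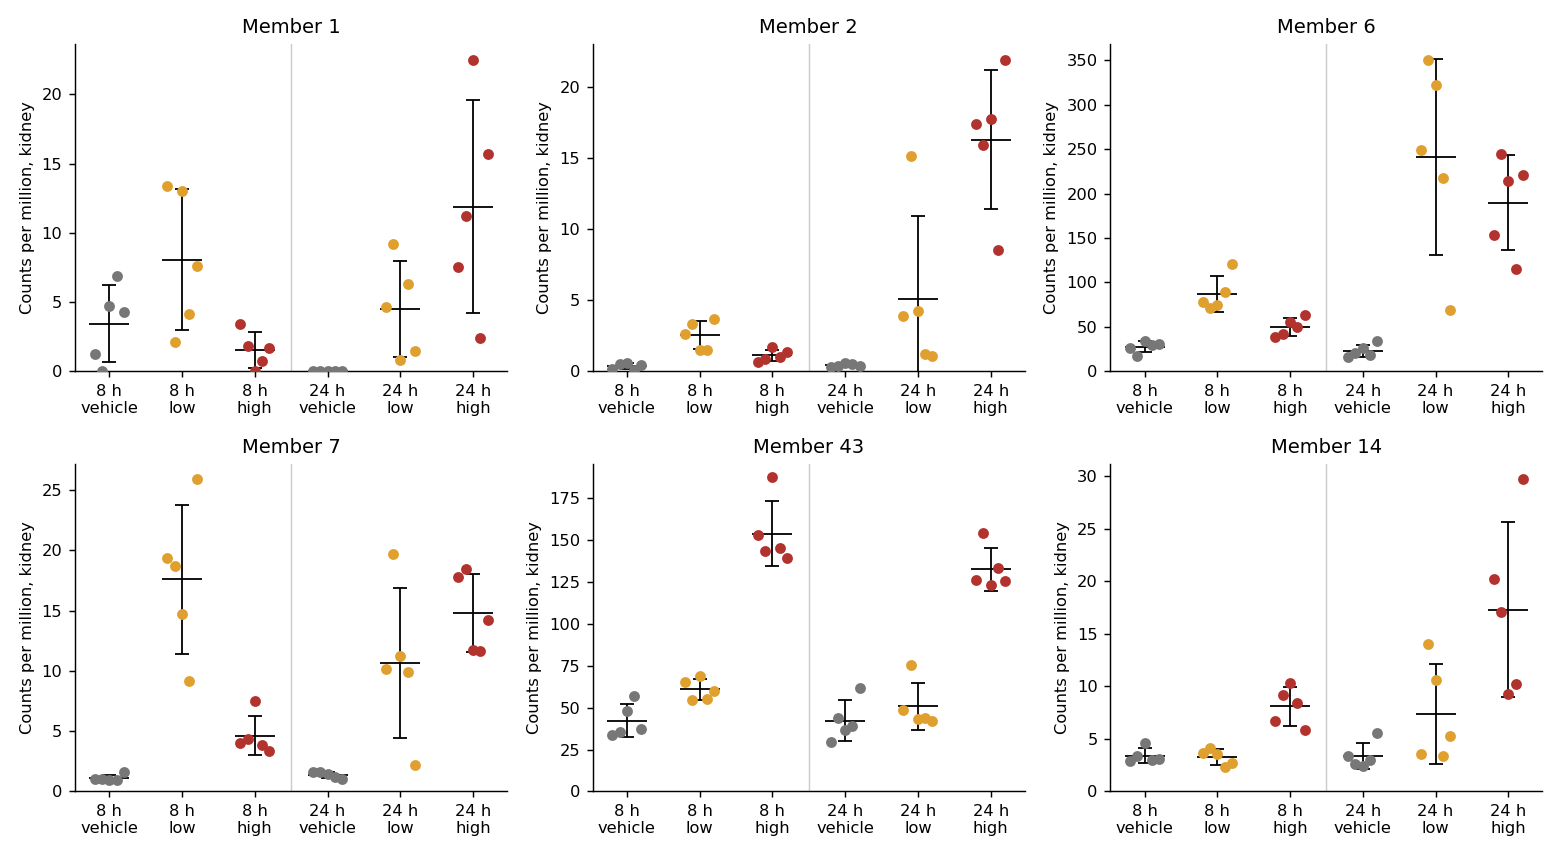
CPM of members 1, 2, 6, 7, 43, and 14 in the 30 kidney samples, with the mean and SD of each group of 5. Members 6 and 7 have higher means after the low than the high dose at 8 h, members 43 and 14 were higher mainly after the high dose at both times, and member 1 is at or near 0 in all vehicle samples of 24 h and in 1 of the 5 vehicle samples of 8 h (MS-100).

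Transcript ENSRNOT00000083275 (member 1) had the largest kidney difference. Its high-dose kidneys at 24 h measured 7.52, 11.2, 22.5, 2.40, and 15.7 CPM, and its vehicle kidneys 0, 0.0030, 8.76e-07, 0, and 0.0061 CPM. All 5 vehicle samples were below the level of 1 count. The vehicle kidneys at 8 h, however, measured 1.23, 0, 4.71, 6.88, and 4.26 CPM, and the high-dose kidneys at 8 h, 3.41, 1.80, 0, 0.757, and 1.71 CPM, overlapped them (edgeR adjusted p = 0.538). Its rank therefore rests on vehicle samples at 24 h that were lower than those at 8 h.

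Transcript ENSRNOT00000052130 (member 2) behaved differently. The high-dose kidneys at 24 h stood at 17.4, 15.9, 17.8, 8.53, and 21.9 CPM, and the vehicle kidneys at 0.265, 0.335, 0.593, 0.489, and 0.354 CPM. The vehicle kidneys at 8 h, 0.114 to 0.586 CPM, were as low. At 8 h the low-dose kidneys measured 2.65, 3.34, 1.51, 1.52, and 3.71 CPM and the high-dose kidneys 0.681, 0.887, 1.67, 1.02, and 1.35 CPM, all above the vehicle samples of that time, but neither comparison passed the call (log2 fold change 2.81 ± 0.48, edgeR adjusted p = 0.0211, and 1.69 ± 0.45, edgeR adjusted p = 0.0496). In liver, ENSRNOT00000052130 averaged 0.596 CPM after the high dose at 24 h and was listed at 0 in the 4 vehicle samples without MS-1. The edgeR fit called this difference higher, as it did for members 7 and 89. Before the liver median was subtracted, the liver differences of the rule were 0.67 for ENSRNOT00000052130, 0.90 for member 7, and 0.59 for member 89, so these passed the liver limit only after centring.

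Member 53 took the most reads of any member in high-dose kidneys. Its high-dose kidneys at 24 h measured 257, 398, 324, 225, and 350 CPM and its vehicle kidneys 67.4, 151, 124, 77.6, and 117 CPM. The groups did not overlap at 24 h. At 8 h it averaged 117 ± 20.9 CPM after the high dose and 152 ± 45.9 CPM in vehicle (SD, n = 5; edgeR adjusted p = 0.319), so a difference was seen at 24 h but was not detected at 8 h. Per length, member 57 had the highest level of the members, with a mean of 217 TPM (transcripts per unit of length, scaled to a fixed sum) in high-dose and 72.7 TPM in vehicle kidneys at 24 h, against 114 and 37.5 TPM for member 53.

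The comparison of vehicle-treated organs at 8 h asked where the members are normally present. Against liver, 19 members (17.6% of those tested) were higher in kidney, where 22.3% of all transcripts were, and 56 (51.9%) were lower in kidney than in liver, where 16% of all transcripts were. All 17 liver-restricted members are among the 56 by their definition. Without them, 39 of 91 members (42.9%) were higher in liver, so that a large share of the other members was also more abundant in untreated liver than in untreated kidney. Those 39 were highest in MS-54 in 9 cases, in MS-36 in 14, in MS-33 in 7, in MS-106 in 5, and in MS-56 in 4. Against heart, 30 of 93 members tested (32.3%) were higher in kidney and 16 (17.2%) lower, where 24% and 20.6% of all transcripts were called.

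Of 87 members tested against both organs, 12 (13.8%) were higher in vehicle kidney than in liver and heart, where 12.2% of all 17553 transcripts were. Member 53 was one of them, with 152 CPM in kidney against 0.0489 CPM in liver and a value listed at 0 in heart. Member 13 averaged 23.8 CPM in kidney, 0.211 CPM in liver, and 0.319 CPM in heart. By contrast, member 6 averaged 27.6 CPM in kidney and 573 CPM in liver, and member 57 averaged 1509 CPM in liver.

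**Figure D4:**
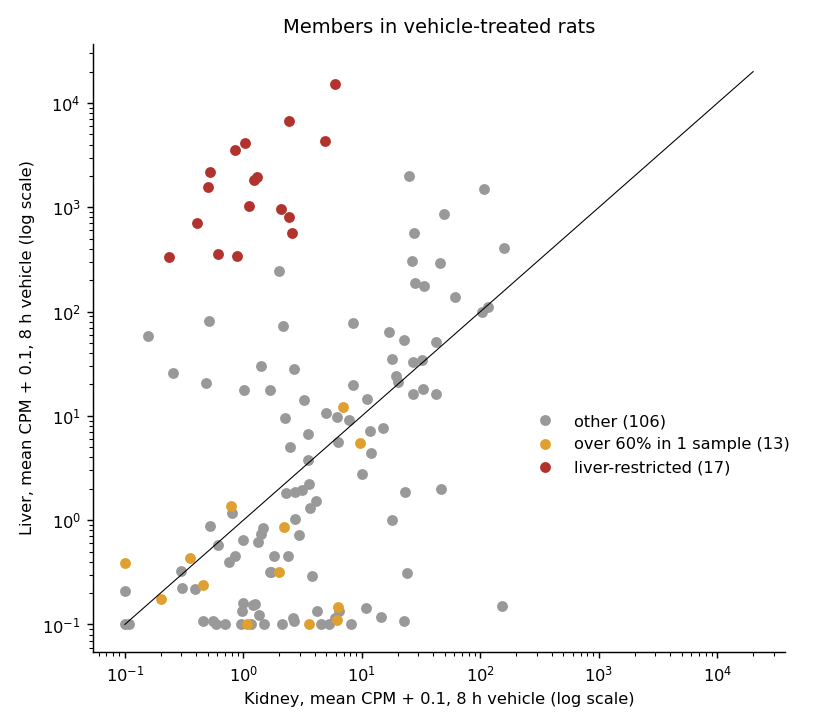
Mean CPM + 0.1 of the 136 members in vehicle kidney and vehicle liver at 8 h on log axes, with the line of equal levels. The 17 liver-restricted members lie far above the line by definition, and the other members lie on both sides of it.

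At 8 h the liver itself changed in many of these transcripts. After the high dose, 19 of 92 members tested (20.7%) rose in liver and 8 (8.70%) fell, where 12.4% and 7.75% of all 16468 transcripts were called. With limma on log2(TPM + 1) or log2(TPM + 0.1) the falls numbered 3 and 4. The members' share that rose was thus above that of all transcripts in an organ where many transcripts moved. Of the 17 members that rose in kidney at 8 h, 14 were tested in liver, and 9 of these rose there too. These 9 are 52.9% of the kidney list, which holds members not tested in liver, and 47.4% of the liver list. Rises in both organs were called for 9 of 85 members tested in both (10.6%) and for 1.03% of all 15571 transcripts. Of the 193 transcripts that rose in kidney and were tested in both, 160 rose in liver too. That is a larger share than the 9 of 14 members. At 24 h the centred liver differences of the 19, from -0.54 to 0.50, were below the limit that the rule set. A transcript of this kidney set at 24 h was therefore not always confined to kidney at 8 h, and a rise shared with liver was not particular to the members.

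Member 64 rose in both organs, by 3.81 in kidney and 3.63 in liver on the log2 scale (edgeR adjusted p = 9.67e-06 in liver). Its liver samples at 8 h measured 2.52, 3.42, 3.63, 2.54, and 3.97 CPM after the high dose and 0.20, 0.281, 0.217, 0.338, and 0.110 CPM in vehicle. Member 43 rose in both as well, with 198 to 433 CPM in the high-dose livers against 34.8 to 68.9 CPM (log2 fold change 2.36 ± 0.25, edgeR adjusted p = 3.48e-05).

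Member 14 went opposite ways. In kidney at 8 h it measured 6.71, 9.22, 10.4, 8.46, and 5.82 CPM after the high dose and 2.93, 3.35, 4.63, 3.01, and 3.06 CPM in vehicle (log2 fold change 1.28 ± 0.20, edgeR adjusted p = 0.00459). In liver it measured 4.47, 3.06, 2.78, 2.80, and 3.27 CPM after the high dose and 6.11, 9.45, 5.34, 5.15, and 7.13 CPM in vehicle (log2 fold change -1.17 ± 0.20, edgeR adjusted p = 0.000658). In neither organ did the groups overlap. It was the only member that rose in kidney and fell in liver at 8 h.

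The largest falls in liver at 8 h among the members were those of ENSRNOT00000077473 (member 116) and ENSRNOT00000009777 (member 63). ENSRNOT00000077473 measured 0.901, 0.756, 1.64, 1.51, and 1.89 CPM in the high-dose livers and 5.90, 5.12, 7.38, 3.33, and 2.85 CPM in the vehicle livers, without overlap (log2 fold change -2.01 ± 0.32, edgeR adjusted p = 0.000484). In kidney at 24 h its high-dose samples, 3.24, 11.3, 5.02, 1.42, and 10.7 CPM, overlapped the vehicle samples, 0.443, 1.89, 2.13, 3.40, and 3.74 CPM, so its place among the members rests on 3 samples.

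ENSRNOT00000009777, a liver-restricted member, measured 316, 316, 294, 303, and 297 CPM in the high-dose livers at 8 h and 821, 803, 575, 931, and 905 CPM in the vehicle livers (log2 fold change -1.57 ± 0.15, edgeR adjusted p = 1.67e-05). Its liver groups were far apart. In kidney at 24 h the high-dose samples measured 5.37, 7.54, 11, 7.47, and 5.05 CPM, the highest in MS-54, and the vehicle samples 3.14, 2.43, 1.78, 1.6, and 1.77 CPM. These groups did not overlap with or without MS-54.

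**Figure D5:**
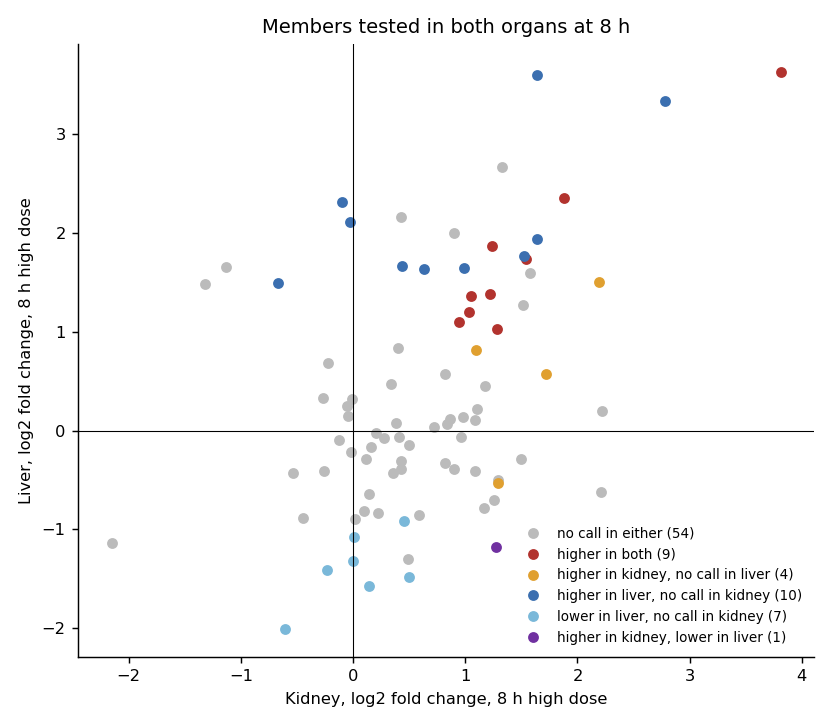
Each point is 1 of 85 members tested in both organs at 8 h; the axes give the edgeR log2 fold change of high dose against vehicle in kidney and liver. The 9 members called higher in both organs lie at the upper right, and member 14 is the single point called higher in kidney and lower in liver.

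In heart at 8 h, edgeR called 0 of 73 members tested after the high dose, where 0.0171% of 17519 transcripts were called higher and 0% lower. Of the 73, 17 had an unadjusted p below 0.05, a larger share than the 9.69% of all transcripts. The median log2 fold change of the 73 was 0.15, against -0.00075 over all transcripts. Of the 73, 44 were above 0, where 49.8% of all transcripts were. DESeq2 also called 0.

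For the contrasts of the rule, the same test serves as a description. In kidney at 24 h, 54 of 118 members tested passed it (2.15% of all 18967 transcripts were called higher and 2.04% lower), so that fewer than the 136 members met the study's limits. In liver at 24 h, without sample MS-1, 3 of 97 members were called higher and 27 lower (13.2% and 13.6% of 17137 transcripts), 13 of the 27 being liver-restricted. In heart at 24 h, 0 of 74 were called (0.677% and 0.245% of 17574 transcripts). An unadjusted p below 0.05 was found for 18 of these 74, where 20.9% of all transcripts had one. The members' median length, 2164 bases, was close to that of the transcripts with at least 1 CPM in vehicle kidney, 2219 bases.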

How the data were processed

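Poly-A-enriched stranded libraries were sequenced with paired-end reads of 75 bases. The authors assigned reads with kallisto (version 0.42.2 in the submitters' processing notes) to the Ensembl transcriptome of Rnor_6.0, and deposited estimated counts and TPM per target for each sample. The TPM values, which cover all targets, were used for levels per length and in alternatives. Targets that are genomic intervals, 4.08 to 28.9% of a sample's counts, were left out.

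CPM was computed from the estimated counts of annotated transcripts. The counts were rounded and tested with edgeR 4.0.16 (quasi-likelihood, default expression filter, Benjamini-Hochberg) in R 4.3.3, each contrast with its own 10 samples (9 for liver at 24 h, where sample MS-1, nearly identical to a sample of another group, was left out). Alternatives were DESeq2 1.42.0, limma 3.58.1 on the log2 of TPM with 1 or 0.1 added, other filters, and other samples. The code was tested on simulated data. Figures used matplotlib 3.10.9.

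The members and the sets within them were chosen with earlier results of these data known, and the liver-restricted and single-sample sets after their values were seen. Members described singly are the first 2 whose groups did not overlap at 24 h, with a high-dose mean of at least 2 CPM, and the 2 largest called falls in liver at 8 h, named by identifier. Planned gene lists and cell type markers were not applied, since the identifiers are not paired with gene names here. The other members, given by number, were picked after their values were seen. Samples of a group came from separate rats per the study's methods, and comparisons between organs treat samples of the same rat as independent.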

Additional observations from a re-analysis of the deposited data

Results flagged for a closer look

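Groups of 5 kidney samples were examined for a sample far from the rest in the summed levels of the 3 sets of members and in the 4 transcripts named by identifier, 42 groups in all. The measure was the gap to the nearest sample divided by the range of the group, with a critical value of 0.71. By chance about 5% of groups pass it.

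In the liver-restricted members, MS-37 stood apart among the low-dose kidneys at 24 h (0.955), MS-54 among the high-dose kidneys at 24 h (0.986), and MS-98 among the high-dose kidneys at 8 h (0.779). The summed levels were 2417 CPM in MS-37, 479 CPM in MS-54, and 86.3 CPM in MS-98. In the single-sample members, MS-106 stood apart among the high-dose kidneys at 24 h (0.725), which follows from how that set was chosen, and MS-100 among the vehicle kidneys at 8 h (0.746).

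Among the transcripts named by identifier, MS-35 was high in ENSRNOT00000052130 in the low-dose kidneys at 24 h, with 15.2 CPM (0.771). In ENSRNOT00000009777, MS-37 was high in the low-dose kidneys at 24 h, with 39.9 CPM (0.872), and MS-59 among the vehicle kidneys at 8 h, with 3.11 CPM (0.756).

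Member 14 was marked because all its high-dose samples at 8 h lay above vehicle in kidney and below vehicle in liver. The log2 fold changes of the organs differed by 2.45, and this difference was not tested.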

How the results depend on the processing

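The number of members depended on how low levels were treated. It was 300, the largest number the rule allows, with a pseudocount of 0.1, 57 with a pseudocount of 5, and 257 from TPM, and these sets held 79, 40, and 74 of the 136 members. Without the subtraction of the median 117 were found, 88 of them shared, and leaving out single kidney samples gave 135 to 177. Samples with library numbers up to 90 alone gave 178 members, 113 of them shared. Medians of the groups in place of means gave 194, 92 of them shared, and keeping MS-1 gave 186, 134 of them shared. MS-106, the top sample of most single-sample members, is numbered above 90. Members called with 1 sample left out numbered 7 to 23 in kidney at 8 h after the high dose (main value 17), 2 to 4 after the low dose (4), 0 to 4 in kidney at 24 h after the low dose (1), 24 to 32 in liver at 8 h (27), 0 in heart at 8 h, 74 to 76 between kidney and liver (75), and 42 to 49 between kidney and heart (46). For the contrasts of the rule they were 36 to 57 in kidney (54), 18 to 26 in liver (30; 18 without sample 2 of the high dose and 19 without sample 4 of the vehicle group), and 0 to 1 in heart (0). With library numbers up to 90 alone, 0 members passed in kidney at 8 h after the high dose, where 2 high-dose samples remained. For the low dose at 8 h, DESeq2 and limma on log2(TPM + 1) both called 7, and 2 remained without MS-40, MS-58, or MS-59. For the low dose at 24 h, DESeq2 called 10, no filter, all 15 samples in 1 fit, and library numbers up to 90 each gave 2, and the filter of 5 counts in 47% of samples, both limma fits, and a term for library numbers above 90 each gave 0. The other alternatives moved no total of called members by over 1.5 times, but the falls in liver at 8 h went from 8 to 3 and 4 with limma and to 12 with no limit on the fold change. The causes of these shifts were not tested. Levels near 1 count per sample limit what can be said of scarce members. No paired analysis was possible for dose groups because they share no numbers. Between organs, 4 pairs of vehicle samples at 8 h have library numbers 30 apart, which the labels do not tie to a rat. As an alternative chosen after seeing the data, a block for these pairs gave 67 calls between kidney and liver (75 in the same samples without it) and 42 between kidney and heart (43). Deviations from the group means correlated at 0.0060 to 0.285 within the kidney and liver pairs and at 0.079 to 0.089 within the kidney and heart pairs. Between samples whose numbers did not match, the correlations ran from -0.272 to 0.185 and from -0.115 to 0.109. Every matched pair was above 0 but not every one above 0.1, and single unmatched pairs exceeded matched ones. Whether the numbers pair the samples was therefore not settled, and the main fits used no block.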

Other observations

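Leaving out the kidney sample MS-54, the members that are no longer selected are 13 of the 17 liver-restricted ones and 14 of the other 119. Of 96 transcripts restricted to heart by the same definition, 1 was a member, and their sum in kidney was highest in the low-dose sample MS-105 at 24 h, with 532 CPM against 71.5 to 118 CPM in the other 4 samples of its group. Among members that are neither liver-restricted nor single-sample members, the high-dose mean in kidney at 24 h was above that at 8 h in 95. The rule chose members by high values in the high-dose kidneys at 24 h. No rise with time is therefore read from this count.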
